A study of Homo sapiens with 3 samples.

Results

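The collagen and integrin genes were examined in ribosome profiling (Ribo-seq) libraries of HEK293T cells that expressed wild-type (WT), G245S or R273H p53. Earlier results of these data were known when members were chosen. A rule on the gene symbol took the genes for collagen chains (COL, a type number, A and a chain number). It also took those for integrin alpha or beta subunits (ITGA or ITGB with a number, together with ITGAV, ITGAL, ITGAM, ITGAX, ITGAE and ITGAD). This gave 69 of the 63241 genes in the table, 44 collagens and 25 integrins; ITGA2B has a letter after its number and fell outside the rule. All 69 had counts in at least 1 library and 54 had counts in all 9. A filter on low counts, which asks for about 0.5 CPM, a count scaled to a common library total, in at least 3 libraries, was passed by 44 members (28 collagens and 16 integrins) and by 19820 genes in all, and only these were tested.

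Ribo-seq sequences the stretches of mRNA that ribosomes protect from nuclease, so a gene's footprints follow the number of ribosomes on its mRNA. That number depends on both the mRNA level and the ribosomes per mRNA, which are not separated here. HEK293T cells descend from human embryonic kidney and express the SV40 large T antigen, which binds p53, so every group also held this viral protein. Each group received a p53 construct, G245S and R273H being hotspot substitutions in the DNA-binding domain, and was harvested after 2 min of cycloheximide, with digestion by micrococcal nuclease for 30 min. The study's methods describe lines made by lentivirus and drug selection, but GEO's labels call the cells stable in one field and transient in another, and both mutants carry a treatment label with the WT construct in it; groups follow the sample titles. Each group is 1 labelled sample with 3 columns, from 3 dishes whose RNA carried barcoded linkers and was pooled at reverse transcription. A difference between groups therefore cannot be told apart from a difference between pools, and the p-values weigh it only against how far dishes of 1 pool differ. No line without a construct was analysed here.

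Collagens are secreted as trimers of chains built from a repeated triplet that begins with glycine, many of the other residues being proline. Fibrillar collagens form the fibrils of connective tissue, FACIT collagens attach to such fibrils, type VI forms beaded filaments, and type IV forms the network of basement membranes, the sheets on which epithelial cells of the kidney and other organs rest. Integrins are pairs of an alpha and a beta subunit that span the cell membrane; the alpha subunit largely sets whether the pair holds collagen, laminin, fibronectin or a protein on another cell, and ITGB1 is shared by the largest group of alpha subunits.

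The triplet can be read in the sequences under the footprints. The following stretches of 20 codons from the middle of the coding region are shown because these genes carried the largest differences that held under every setting tried or, for COL9A3, the largest called rise among collagens; capitals mark codons for glycine (GGN). They are spliced coding sequence on GRCh38 (GENCODE v44, Ensembl canonical transcript), and each coordinate range spans the introns between its exons.
COL4A5 (chrX:108615024-108620317, plus strand, exons 30 to 31): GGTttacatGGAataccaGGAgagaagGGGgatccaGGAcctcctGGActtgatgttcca
COL4A4 (chr2:227056096-227057478, minus strand, exons 29 to 30): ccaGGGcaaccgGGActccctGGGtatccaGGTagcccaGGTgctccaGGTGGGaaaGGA
COL9A3 (chr20:62828965-62829630, plus strand, exons 19 to 21): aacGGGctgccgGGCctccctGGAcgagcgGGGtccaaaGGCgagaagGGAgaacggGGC
ITGA3 (chr17:50075610-50075669, plus strand, exon 12): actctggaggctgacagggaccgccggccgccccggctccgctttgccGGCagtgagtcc
ITGA4 (chr2:181495916-181498660, plus strand, exons 14 to 15): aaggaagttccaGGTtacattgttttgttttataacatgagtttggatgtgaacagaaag
The collagen stretches held 6, 8 and 7 glycine codons and each integrin stretch held 1. Over whole coding regions, GGN codons made up a median of 24.3% of codons in collagens (9.17% to 30.7%) and 7.76% in integrins (6.75% to 9.62%), against 6.37% for all tested coding genes. Proline codons (CCN) made up a median of 16.6% in collagens and 4.88% in integrins, against 5.54%. Members were also long, with a median coding region of 4479 nt in collagens and 3192 nt in integrins against 1398 nt, and collagens had a median GC content of 59.5% against 52.2%.

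Libraries held 18.7 to 24.6 M counts. Across 10886 genes, the level of a gene in a library relative to the other libraries correlated with coding length at a Spearman rho of -0.18 to -0.14 in WT, -0.012 to 0.116 in G245S and 0.140 to 0.196 in R273H dishes, and with GC content at -0.43 to 0.35 over the 9 dishes. Members are long and collagens are GC-rich as a group, while integrins ranged from 41.3% to 63.3% GC around a median of 55.3%. Each result was therefore also computed with these trends removed. The label of an epithelial cell was checked by 6 markers (KRT8, KRT18, KRT19, KRT7, EPCAM and CDH1). Their sum was 155 to 166 CPM in WT, 154 to 156 in G245S and 167 to 172 in R273H dishes. KRT18 and KRT8 made up most of it, at means of 115 and 33.8 CPM in WT. CDH1 and EPCAM averaged 6.65 and 3.91 CPM in WT, and KRT7 and KRT19 had only 15.1 and 1 counts over all dishes. KRT8 was higher in R273H than in WT (log2 fold change 0.36, adjusted p = 1.34e-06). Of 6 fibroblast markers, which summed to 16.1 to 18.6, 17.8 to 18.9 and 22.4 to 26.2 CPM, LUM and PDGFRA were higher in R273H (0.48 and 0.57 on the log2 scale). Of 6 leukocyte markers, which summed to at most 3.87 CPM, 1 was at 0 in every dish. The part of these markers in the results was not tested.

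Levels were compared between genes as footprint density, in CPM per kilobase (kb) of coding region, averaged over all dishes. The collagens with the highest density were COL6A1 at 36.6, COL4A5 at 33.6, COL4A2 at 25.3, COL18A1 at 20.3 and COL2A1 at 17.6. These belong to different assemblies, a beaded filament, the basement membrane network in both type IV cases, a basement membrane proteoglycan and the cartilage fibril. The integrins with the highest density were ITGB1 at 101, ITGAV at 29.7, ITGA5 at 9.97, ITGA6 at 9.47 and ITGA4 at 5.80. ITGA5 and ITGAV bind fibronectin and other ligands through the RGD peptide motif, ITGA6 binds laminin, and ITGA4 binds fibronectin and the adhesion protein VCAM1. Density was also measured per kb of exon, over the merged exons of all annotated transcripts of a gene. By that length, 4 of the 5 collagens and 4 of the 5 integrins stayed in these lists. COL6A2 took the place of COL4A2 and ITGAE that of ITGA4. How far footprints were counted outside the coding region is not stated for this table.

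Together, collagens took 0.102% ± 0.00337 of all counts in WT (SD over 3 dishes), against 0.0860% ± 0.00224 in G245S and 0.0834% ± 0.00117 in R273H; the lowest WT dish, at 0.0978%, lay above the highest mutant dish, at 0.0874%. Part of this collagen difference lay in COL4A5, which held 23.7% of the collagen counts in WT, 15.8% in G245S and 16.3% in R273H. Integrins took 0.0497% ± 0.000911, 0.0496% ± 0.00101 and 0.0515% ± 0.000588 of all counts. The 25 members below the filter averaged 0.111 to 7.11 counts a library. COL1A2, the partner of COL1A1 in type I collagen, had 1 count over all dishes, as did ITGB6, so the COL1A1 to COL1A2 ratio is not given. Partners of leukocyte integrins were similarly low, with 21 counts in all for ITGB2 and 3 for ITGB7.

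**Figure D1:**
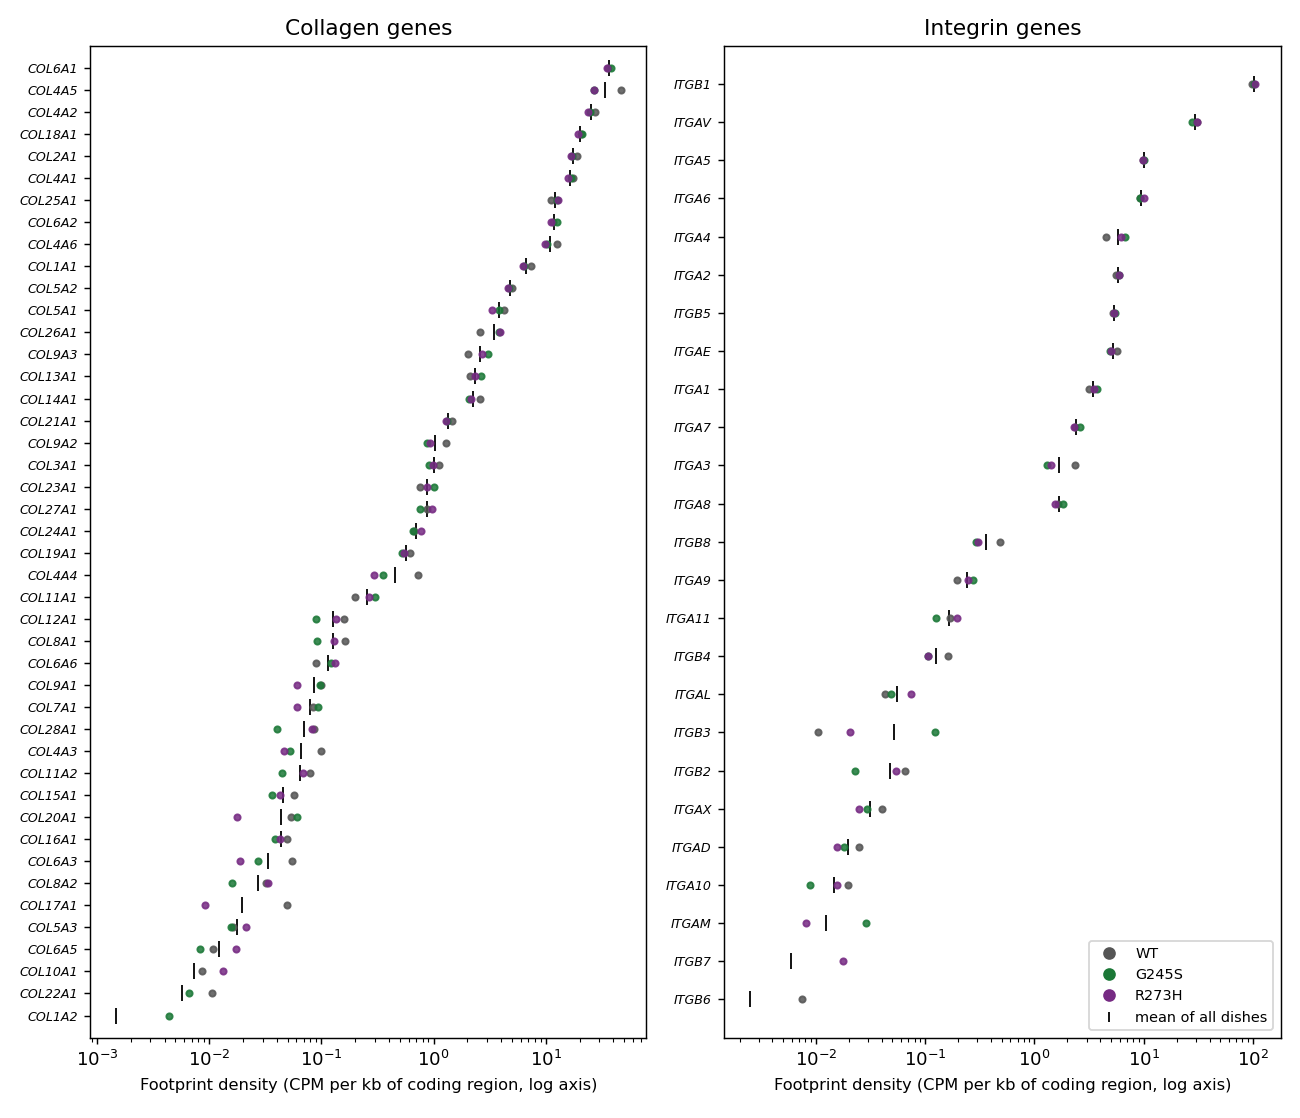
Footprint density (CPM per kb of coding region, log axis) of 44 collagens and 25 integrins; points are group means of 3 dishes, a group with no counts has no point, and black ticks are means of all 9 dishes. COL6A1 (36.6) and ITGB1 (101) lead their families, and COL4A5 shows the WT mean apart from both mutant means.

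In G245S, 16 of the 44 tested members were called against WT at an adjusted p under 0.05 (edgeR quasi-likelihood test), 5 higher and 11 lower, or 36.4% beside 24.7% of all tested genes (12.6% higher and 12.1% lower). In R273H, 15 were called, 5 higher and 10 lower, or 34.1% beside 28.8% of all tested genes (14.2% higher and 14.6% lower). At least 1 mutant gave a call for 19 members (43.2%, beside 35.4% of all tested genes), 13 collagens and 6 integrins. Both contrasts share the WT dishes, and members were chosen with earlier results of these data known. The split by family was uneven in direction: of 28 tested collagens, G245S had 3 higher and 8 lower, and R273H had 3 higher and 9 lower, with median log2 fold changes of -0.12 and -0.16. Of 16 tested integrins, G245S had 2 higher and 3 lower, and R273H had 2 higher and 1 lower, with medians of 0.05 and 0.02. The medians over all genes were -0.0007 and -0.0024. With the length and GC trends removed, 19 of the 44 members were called in G245S, or 43.2% beside 37.3% of all coding genes tested. In R273H 15 were called, or 34.1% beside 38.6%, so there the share of members was below that of all genes. With a test against a fold of 1.2 rather than no change, 4 of the 44 members were called in each mutant. COL4A5, COL4A4 and ITGA3 were lower and ITGA4 was higher. That stricter test was passed by 2.76% of all tested genes for G245S and 3.5% for R273H.

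**Figure D2:**
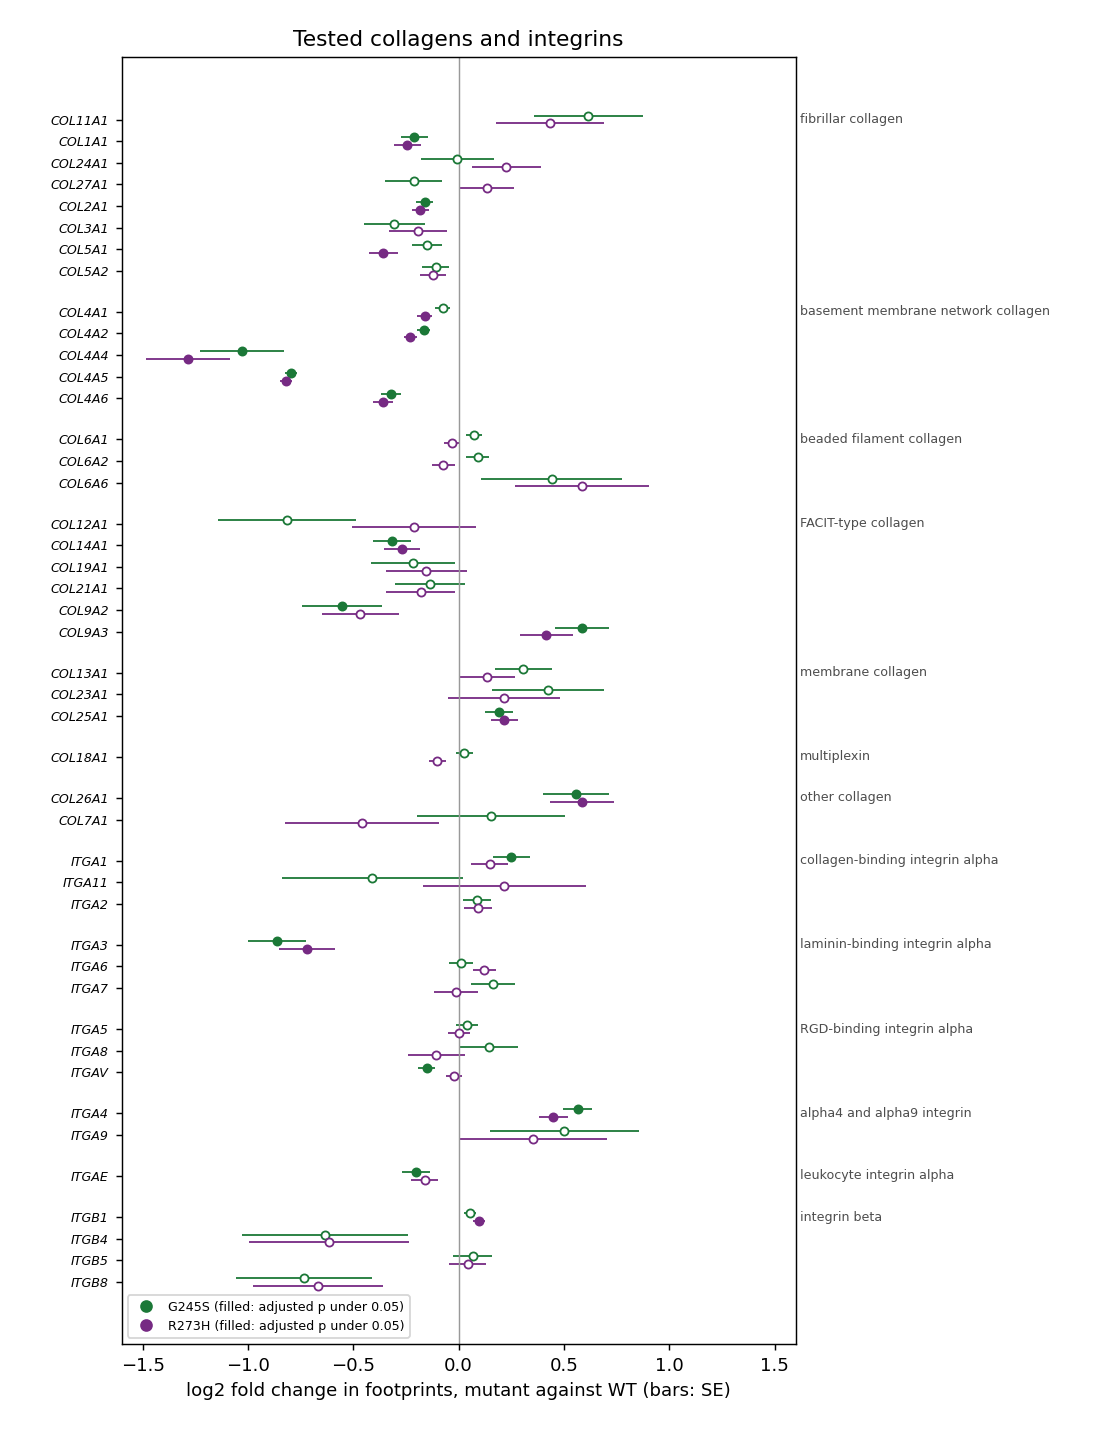
Log2 fold change against WT, with SE from the edgeR fit, of the 44 tested members by class, in G245S (green) and R273H (purple); filled points have an adjusted p under 0.05. All 5 tested type IV chains lie left of 0 in both mutants, and the 4 chains called in G245S and 5 called in R273H are all lower. Of all tested genes, 12.1% were called lower in G245S and 14.6% in R273H.

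Type IV collagen was the class with the most calls. Of its 5 tested chains, 4 were lower in G245S and 5 in R273H, with median log2 fold changes of -0.32 and -0.36. Over all tested genes, 12.1% were lower in G245S and 14.6% in R273H. COL4A5, a chain of the networks found in the kidney glomerulus and in other basement membranes, stood at 233, 243 and 239 CPM in the WT dishes, 135, 141 and 136 in G245S and 132, 138 and 136 in R273H. Every WT dish was above every mutant dish by a wide margin, and the mutants overlapped each other. Its log2 fold change was -0.80 ± 0.03 (SE) in G245S (adjusted p = 2.31e-18) and -0.82 ± 0.03 for R273H (adjusted p = 6.83e-19), or 0.576 and 0.567 of the WT level.

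COL4A6, which assembles with COL4A5, stood at 67.2, 62.8 and 63.2 CPM in WT, 52.5, 52.0 and 50.3 in G245S and 47.1, 50.3 and 53.4 in R273H. The WT dishes again lay above all mutant dishes, with a smaller difference of -0.32 ± 0.05 (adjusted p = 6.65e-06) and -0.36 ± 0.05 (adjusted p = 6.23e-07) on the log2 scale. COL4A4, which assembles with COL4A3 and COL4A5 and whose mutation, like theirs, causes the hereditary kidney disease Alport syndrome, was a low member at 3.62, 4.33 and 3.06 CPM in WT, 1.57, 1.78 and 2.01 in G245S and 1.91, 1.21 and 1.38 in R273H. No mutant dish reached the lowest WT dish, and its differences of -1.03 ± 0.20 (adjusted p = 0.000286) and -1.29 ± 0.20 (adjusted p = 1.23e-05) on the log2 scale were the most negative of any tested member. COL4A3 had 61.9 counts over all dishes, at 0.497 ± 0.0298 CPM in WT, 0.266 ± 0.0559 in G245S and 0.235 ± 0.0647 in R273H (SD, n = 3), and was not tested.

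COL4A1 and COL4A2 form the trimer found in nearly all basement membranes and were less different from WT. COL4A2 averaged 142 ± 4.23 CPM in WT (SD, n = 3), 127 ± 3.15 in G245S and 121 ± 2.56 in R273H, and was lower than WT in both, by log2 fold changes of -0.17 ± 0.03 (adjusted p = 0.000297) for G245S and -0.23 ± 0.03 (adjusted p = 2.51e-06) for R273H. COL4A1 averaged 87.8 ± 1.56, 83.5 ± 2.25 and 78.5 ± 0.137 CPM; it was lower in R273H (-0.16 ± 0.03, adjusted p = 0.000779) and did not pass in G245S (-0.07 ± 0.04, adjusted p = 0.132), where it passed once the length and GC trends were removed (-0.09, adjusted p = 0.0251). Type IV chains made up 53.2% ± 0.803 of the collagen counts in WT, 46.3% ± 0.429 in G245S and 46.6% ± 0.373 in R273H. COL4A5 by itself went from 23.7% ± 0.703 to 15.8% ± 0.444 and 16.3% ± 0.237. In both mutants its fall was larger than that of the type IV share, so the other type IV chains together did not lose share. All calls on COL4A2, COL4A4, COL4A5 and COL4A6 were kept with each library left out in turn and under every other setting, except that COL4A2 and COL4A6, and COL4A1 in R273H, did not pass against a fold of 1.2.

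**Figure D3:**
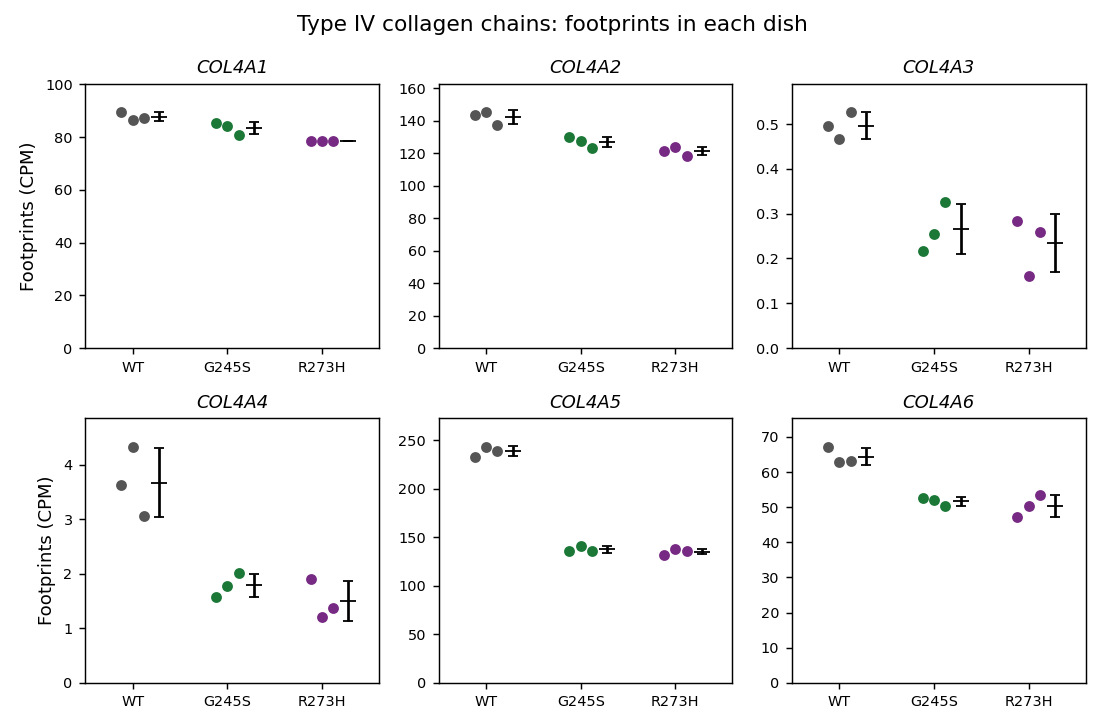
Footprints in CPM (linear axes from 0) of the 6 type IV chains in each of the 3 dishes of WT, G245S and R273H; bars are means with SD. COL4A5 lies at 233 to 243 CPM in WT and at 132 to 141 in the mutants, while COL4A1 is within 78.4 to 89.5 throughout.

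The 6 type IV genes lie as 3 pairs that are transcribed away from each other, a layout known for this family, and both tested members of a pair had negative log2 fold changes in both mutants. By the starts in RefSeq (GRCh38.p14), COL4A1 and COL4A2 are 127 nt apart on chromosome 13, COL4A6 and COL4A5 are 380 nt apart on chromosome X, and COL4A4 and COL4A3 are 419 nt apart on chromosome 2. The sequence between the RefSeq starts, or up to 250 bases of it before the start of the named gene, is shown because each pair shares it. GENCODE v44 instead places the COL4A2 start at 110305812 and the COL4A4 start at 227164453. By that annotation the COL4A2 stretch lies inside COL4A2, and nearly all of the COL4A4 stretch lies inside COL4A4. Capitals mark a GC box (GGGCGG) or a CCAAT box (CCAAT) on either strand.
COL4A2 (chr13:110307158-110307283, plus strand): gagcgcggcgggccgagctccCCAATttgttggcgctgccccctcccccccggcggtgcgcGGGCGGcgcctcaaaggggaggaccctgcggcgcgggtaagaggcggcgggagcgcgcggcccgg
COL4A5 (chrX:108439588-108439837, plus strand): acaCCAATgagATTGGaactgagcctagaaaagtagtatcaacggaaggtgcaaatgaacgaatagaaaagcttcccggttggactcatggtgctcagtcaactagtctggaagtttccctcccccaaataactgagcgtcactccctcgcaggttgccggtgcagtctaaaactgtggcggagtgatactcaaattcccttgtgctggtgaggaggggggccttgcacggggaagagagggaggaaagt
COL4A4 (chr2:227164206-227164455, minus strand): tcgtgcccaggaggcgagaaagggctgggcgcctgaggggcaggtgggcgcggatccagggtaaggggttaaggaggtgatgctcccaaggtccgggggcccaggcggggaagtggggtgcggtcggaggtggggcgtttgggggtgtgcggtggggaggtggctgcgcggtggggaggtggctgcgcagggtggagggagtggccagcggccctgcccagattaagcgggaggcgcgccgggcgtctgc
The COL4A1 to COL4A2 stretch held 1 GC box and 1 CCAAT box, the stretch before COL4A5 held 2 CCAAT boxes, and the stretch before COL4A4 held neither. Over the 250 bases before each start, windows were given for 48 members (65 windows), 14 of them called. A GC box was in 50.8% of member windows and 42.6% of all windows, a CCAAT box in 21.5% and 32.0%, and a TATA box (TATAAA) in 15.4% and 10.7%. A p53 half-site of the usual consensus was in 1 of the 65 member windows, none of them of a called member, and in 5.57% of all windows. The motifs were searched on both strands, do not overlap in the letters shown, and describe the letters in these windows only.

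Among fibrillar collagens, 2 of 8 tested were called in G245S and 3 of 8 in R273H, all lower; these shares of 25.0% and 37.5% stand beside 24.7% and 28.8% of all tested genes. COL5A1, which forms the core of collagen fibrils, stood at 22.4, 25.1 and 23.0 CPM in WT, 21.5, 22.3 and 19.7 in G245S and 17.1, 18.4 and 19.5 in R273H. All R273H dishes were below all WT dishes, and the R273H difference was -0.36 ± 0.07 (adjusted p = 0.000213); the G245S dishes were nearer to WT, at -0.15 ± 0.07 (adjusted p = 0.118), and passed with the length and GC trends removed (-0.17, adjusted p = 0.0345). COL2A1, the cartilage fibril chain, was lower in G245S (-0.16 ± 0.04, adjusted p = 0.00459) and also R273H (-0.18 ± 0.04, adjusted p = 0.001). COL1A1, the main chain of bone and skin collagen, was lower by -0.21 ± 0.07 in G245S (adjusted p = 0.0178) and -0.24 ± 0.06 for R273H (adjusted p = 0.00448). The COL1A1 call in G245S was lost without WT dish 1, WT dish 2 or G245S dish 3 (log2 fold changes -0.21 to -0.12, adjusted p = 0.0525 to 0.184) and in DESeq2 (adjusted p = 0.0509). COL11A1, COL24A1, COL27A1, COL3A1 and COL5A2 were not called in either mutant, with log2 fold changes from -0.30 for COL3A1 to 0.62 for COL11A1 in G245S.

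FACIT collagens went both ways. COL9A2 and COL9A3 encode 2 of the chains of type IX collagen, which coats cartilage fibrils, and moved in opposite directions. COL9A3 stood at 4.36, 4.27 and 3.79 CPM in WT, 6.17, 5.74 and 6.76 in G245S and 5.73, 5.33 and 5.56 in R273H. Its WT dishes were all below its mutant dishes, at 0.59 ± 0.13 in G245S (adjusted p = 0.00101) and 0.42 ± 0.13 for R273H (adjusted p = 0.0137). The R273H call was lost without WT dish 3 (0.36, adjusted p = 0.0635) or R273H dish 1 (0.39, adjusted p = 0.0516), and in DESeq2 (adjusted p = 0.0647). An exon of COL9A3 overlaps TCFL5, a gene on the other strand at 5.54 CPM that was not called in either mutant (0.28 and 0.14).

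COL9A2 stood at 2.73, 3.01 and 2.32 CPM in WT, 1.68, 1.93 and 1.87 in G245S and 1.99, 2.02 and 1.81 in R273H, with every WT dish above every mutant dish. It was lower in G245S (-0.55 ± 0.19, adjusted p = 0.0335), while R273H gave -0.47 ± 0.18 (adjusted p = 0.0562). The G245S call was lost with any of WT dishes 1 and 2 and the 3 G245S dishes left out (adjusted p = 0.0551 to 0.131), in DESeq2 (adjusted p = 0.132) and with no filter (adjusted p = 0.0724), and the R273H difference passed without WT dish 3 (-0.56, adjusted p = 0.0375). COL14A1, which binds the surface of fibrils, stood at 14.2, 13.7 and 13.8 CPM in WT, 10.8, 10.2 and 12.5 in G245S and 12.3, 10.9 and 11.5 in R273H. Mutant dishes all lay below WT, at -0.32 ± 0.09 (adjusted p = 0.0093) and -0.27 ± 0.09 (adjusted p = 0.0197). The G245S call was lost without G245S dish 2 (-0.25, adjusted p = 0.069), and the R273H call without WT dish 1, R273H dish 2 or R273H dish 3 (adjusted p = 0.0511 to 0.0932) and in DESeq2 (adjusted p = 0.0837). COL12A1, COL19A1 and COL21A1 were not called.

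In the remaining collagen classes the calls were higher. COL26A1 stood at 3.67, 4.12 and 2.58 CPM in WT, 5.63, 4.98 and 4.71 in G245S and 5.24, 5.61 and 4.69 in R273H. The WT dishes were spread widely and were all below the mutant dishes, at 0.56 ± 0.16 in G245S (adjusted p = 0.00908) and 0.58 ± 0.15 for R273H (adjusted p = 0.00419). Without WT dish 3 the G245S value was 0.39 (adjusted p = 0.0759). COL25A1, a collagen that spans the membrane, was higher in G245S (0.19 ± 0.07, adjusted p = 0.0332) and R273H (0.22 ± 0.06, adjusted p = 0.0116). Its G245S call was lost without WT dish 1, WT dish 3 or any G245S dish (adjusted p = 0.0593 to 0.148) and in DESeq2 (adjusted p = 0.0994), and its R273H call without WT dish 1 or R273H dish 2 (adjusted p = 0.076 and 0.0963). Of the type VI chains, COL6A1 gave 0.07 ± 0.04 and -0.03 ± 0.04 and COL6A2 gave 0.09 ± 0.05 and -0.07 ± 0.05, without a call; COL6A1 passed in G245S without G245S dish 3 (0.11, adjusted p = 0.0369). COL18A1, a basement membrane collagen whose end is cut off as endostatin, averaged 82.7 ± 4.89 CPM in WT, 84.3 ± 2.19 in G245S and 77.2 ± 0.561 in R273H, and was not called; its R273H difference of -0.10 ± 0.04 passed without WT dish 3 (-0.15, adjusted p = 0.00517). An exon of COL18A1 overlaps SLC19A1 (76.1 CPM) on the other strand, which was itself higher in G245S (0.21, adjusted p = 0.00027) and R273H (0.13, adjusted p = 0.0125).

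**Figure D4:**
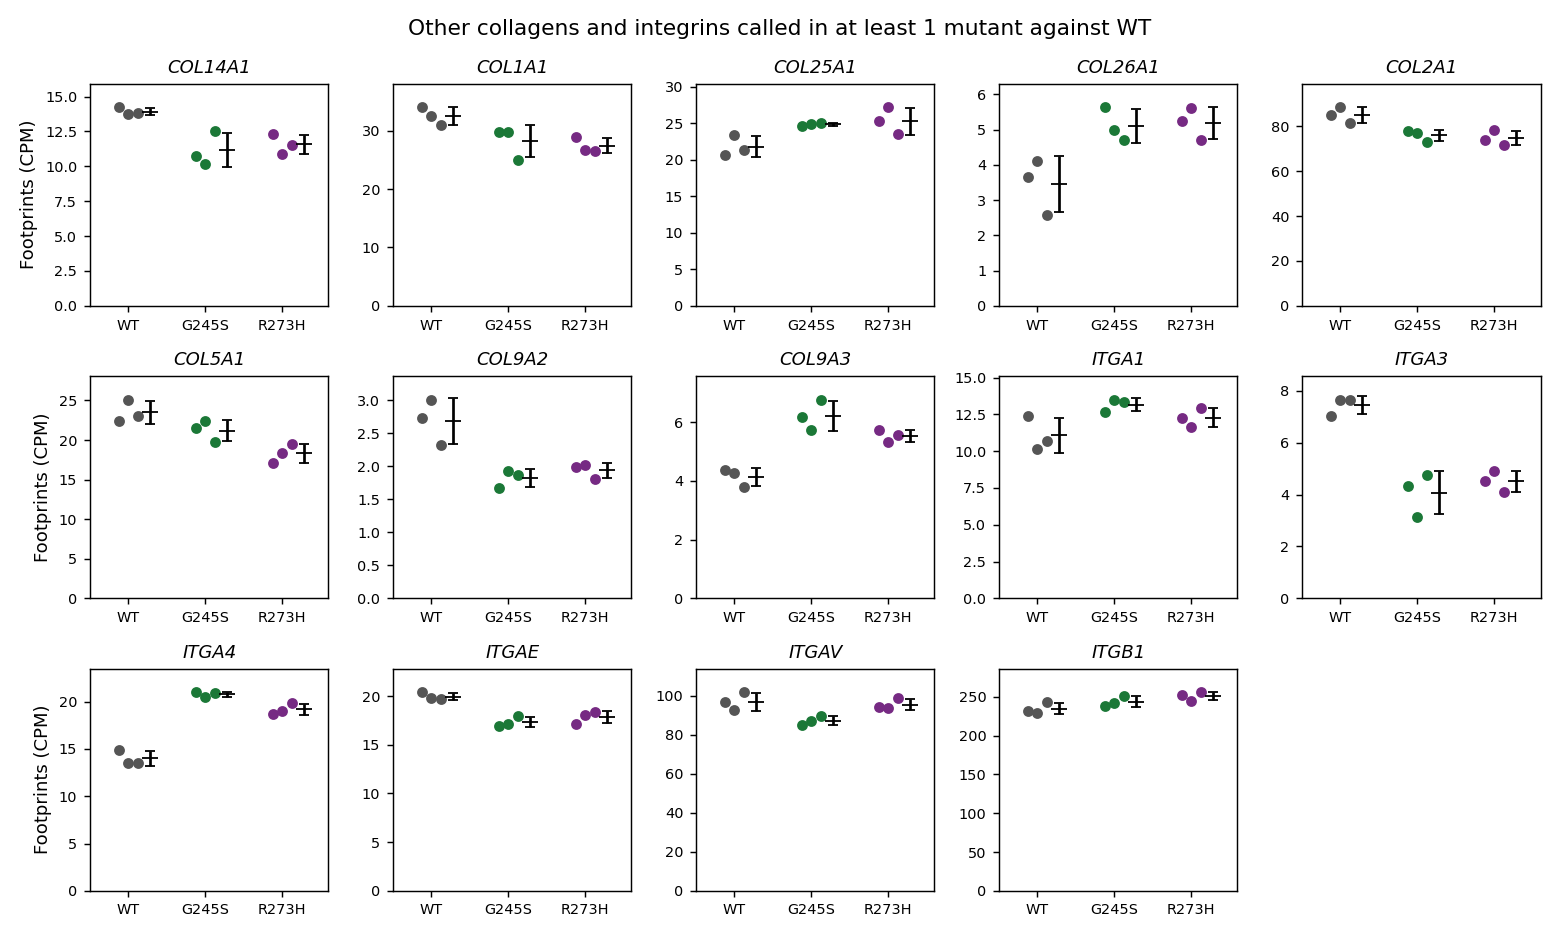
Footprints in CPM (linear axes from 0) in each dish of the 14 members outside type IV that were called in at least 1 mutant against WT; bars are means with SD. ITGA3 and ITGA4 have no overlap between WT and mutant dishes in opposite directions, while the ITGB1 and ITGAV dishes lie close together.

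Among integrins, the alpha subunits that pair with ITGB1 included the largest fall and the largest rise that were called. ITGA3, a laminin receptor of epithelial cells, stood at 7.04, 7.65 and 7.64 CPM in WT, 4.33, 3.15 and 4.76 in G245S and 4.51, 4.93 and 4.09 in R273H. No mutant dish reached a WT dish, and it was lower in G245S (-0.86 ± 0.14, adjusted p = 2.48e-05) and R273H (-0.72 ± 0.13, adjusted p = 0.000114). ITGA4 stood at 14.9, 13.6 and 13.5 CPM in WT, 21.0, 20.5 and 20.9 in G245S and 18.7, 19.0 and 19.9 in R273H. All mutant dishes lay above all WT dishes, and it was higher in G245S (0.57 ± 0.07, adjusted p = 4.89e-07) and R273H (0.45 ± 0.07, adjusted p = 1.12e-05). Both genes kept their calls with each library left out and under every other setting tried. An exon of ITGA4 overlaps CERKL, at 0.551 CPM, on the other strand.

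The other laminin receptors, ITGA6 and ITGA7, were not called; ITGA6 gave 0.01 ± 0.06 and 0.12 ± 0.05, with a pass in R273H without WT dish 2 (0.16, adjusted p = 0.0499). An exon of ITGA7 overlaps BLOC1S1 (72.2 CPM) on the other strand, which was lower in both mutants (-0.286 and -0.375). Of the RGD receptors, ITGAV was lower in G245S (-0.15 ± 0.04, adjusted p = 0.0043), with dishes at 84.9, 87.2 and 89.9 CPM below the WT dishes at 96.8, 92.5 and 102. In R273H, ITGAV gave -0.02 ± 0.04, with dishes at 94.1, 93.9 and 98.9 CPM inside the WT range; ITGA5 and ITGA8 were not called. ITGAV had the smallest adjusted p of any member between G245S and R273H (-0.13 ± 0.04 on the log2 scale, adjusted p = 0.0641).

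Of the collagen receptors, ITGA1 was higher in G245S (0.25 ± 0.09, adjusted p = 0.0395), and gave 0.15 ± 0.09 in R273H; ITGA2 and ITGA11 were not called. The ITGA1 call was lost without WT dish 2, WT dish 3 or any G245S dish (adjusted p = 0.0504 to 0.182), in DESeq2 (adjusted p = 0.118) and with no filter (adjusted p = 0.0503). An exon of ITGA1 overlaps PELO, a ribosome rescue factor on the same strand at 57.5 CPM, above the 11.1 to 13.2 CPM of ITGA1, so footprints may be divided between them; PELO itself gave -0.0038 and 0.0069 on the log2 scale. ITGAE, which with ITGB7 binds E-cadherin on epithelial cells, was lower in G245S (-0.20 ± 0.07, adjusted p = 0.0278), and gave -0.16 ± 0.06 in R273H (adjusted p = 0.0626). That call was lost without WT dish 1, WT dish 2, G245S dish 1 or G245S dish 2 (adjusted p = 0.0584 to 0.0943), in DESeq2 (adjusted p = 0.108) and with no filter (adjusted p = 0.067), and R273H passed with the length and GC trends removed (adjusted p = 0.0463). An exon of ITGAE overlaps HASPIN, at 26.1 CPM, on the other strand, and the table's handling of strand is not stated.

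ITGB1 averaged 235 ± 7.42 CPM in WT, 244 ± 7.11 in G245S and 251 ± 5.39 in R273H. All R273H dishes were above all WT dishes by a small margin, 0.10 ± 0.03 on the log2 scale (adjusted p = 0.0135), and G245S gave 0.05 ± 0.03 (adjusted p = 0.192). The R273H call was lost without WT dish 1, WT dish 2, R273H dish 1 or R273H dish 3 (adjusted p = 0.0504 to 0.089) and with the length and GC trends removed (0.04, adjusted p = 0.15), and G245S passed without WT dish 3 (0.08, adjusted p = 0.0409). ITGB4, ITGB5 and ITGB8 were not called. Summed over all 17 alpha members, footprint density was 75.5 ± 1.78 CPM per kb in WT, 74.6 ± 1.05 in G245S and 76.7 ± 1.41 in R273H, and over all 8 beta members 104 ± 2.91, 108 ± 2.56 and 111 ± 2.02.

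Ratios of densities were taken for subunits that assemble together. COL4A1 to COL4A2 was 0.634 ± 0.0215 (SD over 3 dishes) in WT, 0.675 ± 0.00195 in G245S (exact permutation p = 0.1) and 0.664 ± 0.0153 in R273H (exact permutation p = 0.2). COL6A1 to COL6A2 was 3.09 ± 0.0676, 3.06 ± 0.228 (exact permutation p = 0.9) and 3.18 ± 0.113 (exact permutation p = 0.3). ITGB1 to the sum of its 12 alpha partners was 1.40 ± 0.0156, 1.46 ± 0.0255 and 1.46 ± 0.0278 (exact permutation p = 0.1 for both). Per kb of merged exons it was 0.784, 0.799 and 0.811 (exact permutation p = 0.3 and 0.2). These tests were two-sided, and 3 dishes against 3 cannot give a p below 0.1, so none could pass 0.05.

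Between G245S and R273H, 0 of the 44 tested members were called in edgeR and 0 in DESeq2, beside 2.59% and 1.96% of all tested genes. At an unadjusted p under 0.05 there were 8 members, or 18.2%, and 15.7% of all genes. These were COL18A1, COL27A1, COL4A1, COL5A1, COL6A1 and COL6A2 among collagens, and ITGA6 and ITGAV among integrins. There was 1 call with no filter (beside 1.68% of all genes tested), and there were 2 with only the libraries compared (3.2%). Leaving out WT dish 3 gave 2 (3.21%), leaving out G245S dish 3 gave 3 (3.53%), and a block for dish number gave 5 (6.37%). A p that misses the threshold does not show that the mutants were equal, and the largest of these 8 differences was -0.35 on the log2 scale, for COL27A1 (4.24 ± 0.414 CPM in G245S and 5.39 ± 0.235 in R273H).

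Genes that act with collagens and integrins were read from 4 lists. The collagen maturation list holds the enzymes and chaperones that modify, fold, trim and cross-link chains; of its 30 tested genes, G245S had 9 higher and 2 lower, and R273H had 12 higher and 3 lower, with medians of 0.07 and 0.13. Calls thus took 36.7% and 50% of this list, beside 24.7% and 28.8% of all tested genes. LOX, which cross-links collagen outside the cell, averaged 17.0 ± 0.970, 22.5 ± 1.16 and 22.5 ± 0.786 CPM in WT, G245S and R273H, and was higher in both (0.41 ± 0.07, adjusted p = 5.15e-05, and 0.41 ± 0.07, adjusted p = 2.95e-05). LOX was named after its values were seen, as the leading gene called in both. By the fixed rule, TLL1 and PCOLCE, which act in the trimming of procollagen, had the largest rises and were called in R273H (0.71 and 0.52). BMP1, the main procollagen C-proteinase, was lower in both (-0.40 and -0.37), as was P4HB, a subunit of prolyl 4-hydroxylase (-0.11 and -0.17).

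Of 26 other ligands of integrins that were tested, G245S had 9 higher and 4 lower, and R273H had 6 higher and 4 lower, or 50% and 38.5% beside the same 24.7% and 28.8%. FN1, fibronectin, averaged 93.4 ± 2.90, 77.7 ± 3.26 and 73.2 ± 3.42 CPM and was lower in both (-0.27 ± 0.04, adjusted p = 1.26e-05, and -0.35 ± 0.04, adjusted p = 1.05e-07). LAMB1, a laminin chain of basement membranes named after its values were seen, went the other way at 103 ± 2.32, 147 ± 5.82 and 134 ± 2.54 CPM (0.51 ± 0.03, adjusted p = 1.53e-12, and 0.38 ± 0.03, adjusted p = 7.79e-10). By the rule, THBS2 was higher in R273H (1.43, from 0.243 ± 0.0857 to 0.657 ± 0.169 CPM), NPNT was higher in G245S (0.74), and the laminin chain LAMA3 was lower in G245S (-0.35).

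Of 35 tested genes of the adhesion machinery inside the cell, G245S had 7 higher and 5 lower, and R273H had 8 higher and 5 lower, or 34.3% and 37.1% beside 24.7% and 28.8% of all tested genes. FERMT2, the kindlin that activates integrins, was higher in both (0.31 and 0.33), as was the small GTPase RAP1B (0.19 and 0.31). KANK3, of a family that binds talin, showed the greatest fall on these lists, from 3.15 ± 0.268 CPM in WT to 0.761 ± 0.240 in G245S and 0.923 ± 0.0620 in R273H (-2.02 and -1.76), and the kinase PTK2B was lower in G245S (-0.79). Of 3 tested collagen receptors that are not integrins, the receptor kinase DDR2 (0.45 and 0.36) and the uptake receptor MRC2 (0.46 and 0.44) were higher in both mutants and DDR1 was not called (0.08 and 0.07).

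**Figure D5:**
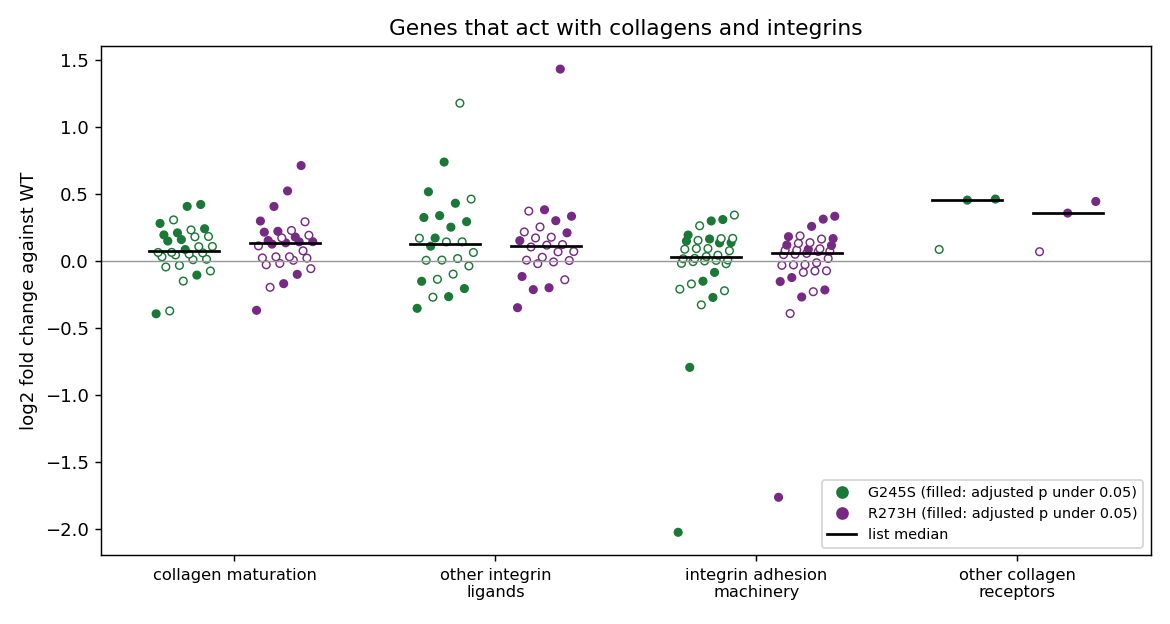
Log2 fold change against WT of each tested gene of the 4 lists in G245S (green) and R273H (purple); filled points have an adjusted p under 0.05 and black lines are list medians. The medians lie between 0.03 and 0.45, and KANK3 is the lowest point in both mutants, at -2.02 and -1.76.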

How the data were processed

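Ribo-seq of HEK293T cells with WT, G245S or R273H p53 used 3 dishes per group. Per the labels and the study's methods, the authors trimmed reads (Trim Galore, cutadapt), removed rRNA reads, used UMI-tools where applicable, and aligned to GRCh38 with STAR. The deposited table holds expected counts (estimated counts per gene, not scaled); the counting tool, annotation, strand setting and multi-mapping rule are not given in the sources used here.

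Expected counts were rounded and tested in edgeR 4.0.16 (R 4.3.3): TMM, filterByExpr, robust glmQLFit and glmQLFTest, two-sided, group as the only term, all 9 libraries in one fit, Benjamini-Hochberg over 19820 genes. CPM uses TMM-scaled totals. SE comes from the fit. Coding lengths and coordinates come from GENCODE v44 (GRCh38). No spike-in or matched RNA-seq was used, so changes are relative to other genes and mRNA level is not separated from translation. The fit was tested on simulated data for G245S against WT, with 50 genes changed at each fold. It called 21 of 50 in the right direction at a fold of 1.2, 33 at 1.5, 42 at 2 and 47 at 4. Small differences can therefore be missed. Far fewer genes were changed in the simulation than the 24.7% called in G245S, so its rates need not be those of the data.

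Named genes were every called member, dish values for the 10 largest called differences (mean count of at least 20), the 5 densest of each family, and, among called genes of each list, the 2 largest rises and falls by the mean of both log2 fold changes. Members and lists were chosen with earlier results of these data known. Alternatives were RLE and upper-quartile scaling, no or a stricter filter, DESeq2 1.42.0, only the libraries compared, a replicate block, a minimum fold of 1.2, removal of length and GC trends, and leaving out each library.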

Additional observations from a re-analysis of the deposited data

How the results depend on the processing

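Counts of members called against WT moved by less than 1.5 times under all alternatives but a minimum fold of 1.2. That test asks for more, and left 4 members in G245S and 4 in R273H, beside 2.76% and 3.5% of all tested genes. Leaving out each library gave 11 to 16 members in G245S and 12 to 16 in R273H. DESeq2 called 11 and 13. Between G245S and R273H, 0 members rose to 1 with no filter, 2 with only the libraries compared and 0 to 3 with a library left out (2 without WT dish 3, 3 without G245S dish 3). The shares of all genes tested were 1.68%, 3.2% and 0.798% to 3.53%, and the cause was not tested. With the dish number as a replicate block the count between G245S and R273H was 5 (4 higher and 1 lower in G245S), beside 6.37% of all tested genes. The mutants against WT then gave 16 and 17, with COL18A1 (adjusted p = 0.0178) and ITGAE (adjusted p = 0.0466) gained in R273H. The shares of all tested genes were 29.2% and 33.0% with the block, and 24.7% and 28.8% without. The labels tie same-numbered dishes by a number only, and whether such dishes were handled together was not tested. Their deviations correlated at 0.0437 to 0.234, all positive but not all above 0.1. Dishes of different numbers gave -0.189 to 0.0595. The highest correlation of every dish was with a dish of its own number. Among WT dishes alone, R273H dish 2 was nearest to WT dish 1, at 0.0595 against 0.0437. The main fit held no term for dish number. Of 828 results under alternatives, 742 kept direction and side of the threshold, 69 lost it, 10 gained it and 7 turned. Those that turned were never called: COL18A1 in G245S (-0.0032 with trends removed, -0.0177 to 0.0533 with a library left out), ITGA6 in G245S (-0.0320 to 0.0539 with a library left out), ITGA5 in R273H (-0.0127 to 0.0229, likewise) and ITGAV in R273H (-0.0552 to 0.0159, likewise). Depth limits members with few counts: ITGA11, below 1 CPM in every group, has an SE of 0.43 in G245S, against 0.03 for COL4A5.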
